A study of Mus musculus with 26 samples.

Results

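The nuclear genes for the subunits of oxidative phosphorylation (OXPHOS) were followed through the open chromatin of mouse pluripotent cells. They were taken by symbol from the protein-coding genes of the mouse annotation GRCm38.p6: Nduf followed by a, b, c, s or v, the 4 Sdh genes, and every symbol beginning Uqcr, Cox4 to Cox8 or Atp5. This gave 96 genes of 21887 by symbol alone. They were assigned to complexes by symbol as well, so that Ndufa4 and Ndufa4l2 count under complex I. This put 41 in complex I, 4 in complex II, 8 in complex III, 18 in complex IV and 17 in complex V. The remaining 8 are the complex I assembly factors Ndufaf1 to Ndufaf8, which the symbols take in although they are not subunits. Ndufb4b and Ndufb4c, additional Ndufb4-like genes, and Cox7a2l, a factor of respiratory supercomplexes, are also counted.

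The assay was ATAC-seq with 50000 cells for each library: the transposase Tn5 cuts DNA where it is accessible and adds sequencing adapters there. Embryonic stem (ES) cells, the naive state, were grown in 2iL and used at passage 16 (3 libraries). Formative stem (FS) cells, described by the series as a state between naive and primed, were grown in A3XR, as line FS1 at passage 21 and line FS2 at passage 29 (3 libraries each). Epiblast stem cells (EpiSC), the primed state, were grown in AF at passage 22 (EpiSC_AF, 3 libraries) or in AFX, as EpiSC_AFX1 at passage 14 and EpiSC_AFX2 at passage 16 (3 libraries each). A second set, named Rd2, held 2 libraries of Rd2GFP ES cells in 2iL at passage 33, 4 of epiblast-like cells (Rd2_EpiLC) made from ES cells in 2 days of AF with KSR and sorted for low GFP, and 2 of EpiSC in AFX at passage 16 (Rd2_AFX). The labels give no genotype, strain or sex, and number the libraries of a culture without saying that they came from separate cultures. Each p therefore measures the spread between these libraries, which may be technical. In the comparisons of cell types, that spread also takes in the difference between the 2 lines of FS and of EpiSC_AFX. The libraries of a line were still counted there as separate units. ES and EpiSC_AF are each a single culture, so that cell type and culture cannot be told apart there.

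In oxidative phosphorylation, complexes I and II take electrons from NADH and succinate, complex III passes them to cytochrome c and complex IV passes them to oxygen. Complexes I, III and IV pump protons across the inner mitochondrial membrane, and complex V, the ATP synthase, uses the gradient to make ATP. Nearly all subunits are encoded in the nucleus, and several complex IV subunits have isoforms restricted to muscle, lung or testis. Naive ES cells are known to use both respiration and glycolysis, whereas EpiSC rely mainly on glycolysis. The factors NRF1, GABPA (an ETS factor) and YY1 are known regulators of nuclear genes for mitochondrial proteins.

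The deposited data were 26 lists of peaks, and the number of peaks was the only stand-in for depth, since no read counts were used. The 18 lists of the first set held 8044 to 31263 peaks, with ES at 9570 ± 1463 (SD, n = 3), FS1 at 27198 ± 3747 (SD, n = 3) and FS2 at 12968 ± 1176 (SD, n = 3). The Rd2 lists held 471 to 26045 peaks, and both Rd2_ES lists stood apart with 471 and 2576. A gene was said to have a peak where a peak lay within 1 kb of either of its ends. Lists of the first set were compared at equal length, on the 8044 peaks with the highest −log10 p of each. A gene's rank is the percentile of its best peak in that list (100 is the strongest peak, 0 stands for no peak). The shortest list is ES replicate 2, so ES ranks rest on nearly whole lists and those of most other cultures on the upper part of longer ones. A low rank can come from fewer cells with an open site or from a less open site in each cell, which cannot be told apart here. Of 13 naive marker genes, 5 to 6 had a peak in the ES lists at equal length and 3 to 5 in all others. None of 6 extraembryonic endoderm markers and at most 1 of 10 fibroblast markers had a peak in an ES list. As deposited, the lists of FS cells had peaks at up to 6 fibroblast markers and up to 3 endoderm markers, and those of EpiSC_AFX at up to 7 and up to 4. The fibroblast genes Col3a1, Postn and Prrx1 and the endoderm genes Gata4 and Pdgfra had none in any first-set list. The other markers of both lists each had a peak in some of these lists. Of 9 formative markers at equal length, 0 to 1 had a peak in ES, 0 to 3 in FS, and 3 to 5 in EpiSC_AF and in EpiSC_AFX. Of 11 primed markers, 0 to 1 had a peak in ES, 0 to 3 in FS, 1 to 3 in EpiSC_AF and 0 to 2 in EpiSC_AFX. The part of these marker patterns in the results was not tested.

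Promoters of 8 members are shown because they span the patterns below. Ndufaf8, Atp5e and Atp5b had a peak in every list at equal length, Ndufaf3 and Atp5g2 ranked higher in ES, Ndufa6 and Sdhb ranked lower in ES in 1 comparison each, and Cox7b2 had no peak in any list. Each runs from 250 bases before to 50 bases after the start of the gene in RefSeq (GRCm38.p6), 5′ to 3′ on the strand of the gene. Capitals mark matches, on either strand, to 3 motifs: GCGCANGCG (the NRF1 core), CCGGAAG (the ETS core) and AAGATGGCG (the YY1 core). Where 2 matches overlap, they share 1 run of capitals.
Ndufaf8 (chr11:120098684-120098983, plus strand): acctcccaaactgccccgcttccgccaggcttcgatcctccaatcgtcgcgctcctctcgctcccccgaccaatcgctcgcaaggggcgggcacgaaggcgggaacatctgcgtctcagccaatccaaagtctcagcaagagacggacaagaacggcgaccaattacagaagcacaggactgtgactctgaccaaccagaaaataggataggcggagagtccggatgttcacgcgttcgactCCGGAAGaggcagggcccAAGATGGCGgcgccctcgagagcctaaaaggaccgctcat
Atp5e (chr2:174464052-174464351, minus strand): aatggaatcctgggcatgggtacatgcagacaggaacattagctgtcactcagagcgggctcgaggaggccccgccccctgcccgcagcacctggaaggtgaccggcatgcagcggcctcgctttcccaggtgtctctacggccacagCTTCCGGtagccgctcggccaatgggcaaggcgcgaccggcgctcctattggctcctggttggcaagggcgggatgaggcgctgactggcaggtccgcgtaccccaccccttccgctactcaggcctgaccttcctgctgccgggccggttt
Atp5b (chr10:128083057-128083356, plus strand): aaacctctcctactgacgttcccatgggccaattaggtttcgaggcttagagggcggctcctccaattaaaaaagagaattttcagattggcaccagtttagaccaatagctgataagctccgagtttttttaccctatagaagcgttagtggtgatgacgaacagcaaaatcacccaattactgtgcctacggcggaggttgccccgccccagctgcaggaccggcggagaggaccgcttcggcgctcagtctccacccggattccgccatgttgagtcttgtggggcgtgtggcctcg
Ndufaf3 (chr9:108567387-108567686, minus strand): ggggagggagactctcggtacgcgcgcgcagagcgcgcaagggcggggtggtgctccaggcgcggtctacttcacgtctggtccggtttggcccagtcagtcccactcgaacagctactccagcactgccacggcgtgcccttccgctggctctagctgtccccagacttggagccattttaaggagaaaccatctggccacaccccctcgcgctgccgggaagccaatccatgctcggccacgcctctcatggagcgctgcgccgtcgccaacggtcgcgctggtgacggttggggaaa
Atp5g2 (chr15:102670998-102671297, minus strand): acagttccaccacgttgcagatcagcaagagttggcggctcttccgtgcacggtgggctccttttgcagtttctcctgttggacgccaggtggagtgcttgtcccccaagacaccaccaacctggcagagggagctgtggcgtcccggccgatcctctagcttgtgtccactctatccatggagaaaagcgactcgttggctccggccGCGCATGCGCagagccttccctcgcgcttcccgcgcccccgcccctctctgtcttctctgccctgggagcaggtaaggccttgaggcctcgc
Ndufa6 (chr15:82354242-82354541, minus strand): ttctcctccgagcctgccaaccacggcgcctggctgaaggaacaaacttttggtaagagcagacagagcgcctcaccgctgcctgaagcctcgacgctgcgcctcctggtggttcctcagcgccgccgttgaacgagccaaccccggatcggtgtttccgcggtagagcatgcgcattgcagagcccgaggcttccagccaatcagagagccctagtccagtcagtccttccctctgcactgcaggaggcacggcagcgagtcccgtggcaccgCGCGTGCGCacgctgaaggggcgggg
Sdhb (chr4:140961021-140961320, plus strand): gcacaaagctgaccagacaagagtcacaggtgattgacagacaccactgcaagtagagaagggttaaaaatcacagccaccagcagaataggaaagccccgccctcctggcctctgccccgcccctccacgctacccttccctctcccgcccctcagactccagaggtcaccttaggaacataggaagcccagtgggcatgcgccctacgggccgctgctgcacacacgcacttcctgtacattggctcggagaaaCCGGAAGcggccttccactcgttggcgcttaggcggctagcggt
Cox7b2 (chr5:71548156-71548455, minus strand): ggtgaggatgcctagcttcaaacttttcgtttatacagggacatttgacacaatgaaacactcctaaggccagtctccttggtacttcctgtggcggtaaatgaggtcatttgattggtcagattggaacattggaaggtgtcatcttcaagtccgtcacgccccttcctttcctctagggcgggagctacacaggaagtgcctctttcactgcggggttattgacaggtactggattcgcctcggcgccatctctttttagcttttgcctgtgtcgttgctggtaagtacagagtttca

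Among the promoters shown, Ndufaf8 held the ETS and the YY1 core, Atp5e and Sdhb held the ETS core, and Atp5g2 and Ndufa6 held the NRF1 core. Those of Atp5b, Ndufaf3 and Cox7b2 held none of the 3. Of the 96 members, 78 had a promoter in the RefSeq table. The others included Cox6c, Sdhc, Cox8c, Atp5mpl, Ndufaf6, Atp5a1, Ndufa2, Ndufb4c, Uqcrq, Uqcrc2, Uqcrb, Ndufb9, Cox4i1, Ndufs1, Ndufa4l2, Cox6a2 and Cox4i2. The NRF1 core was found in 22 of the 78 promoters (28.2%) and in 9.63% of 17492 promoters of protein-coding genes. The ETS core was found in 19 (24.4%) against 12.9%, and the YY1 core in 8 (10.3%) against 2.14%. The GGGCGG box of SP1 and KLF factors was found in 44.9% against 49.2%, and CCAAT, the core of NF-Y sites, in 43.6% against 42.3%. The NRF1, ETS and YY1 cores were thus more frequent at the members than over all promoters, while the other 2 motifs were about as frequent. The GGGCGG box can overlap other GC-rich motifs, and the members' promoters had a median of 20 CG dinucleotides against 15 over all. These are matches of letters in a fixed window, not binding sites.

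**Figure D1:**
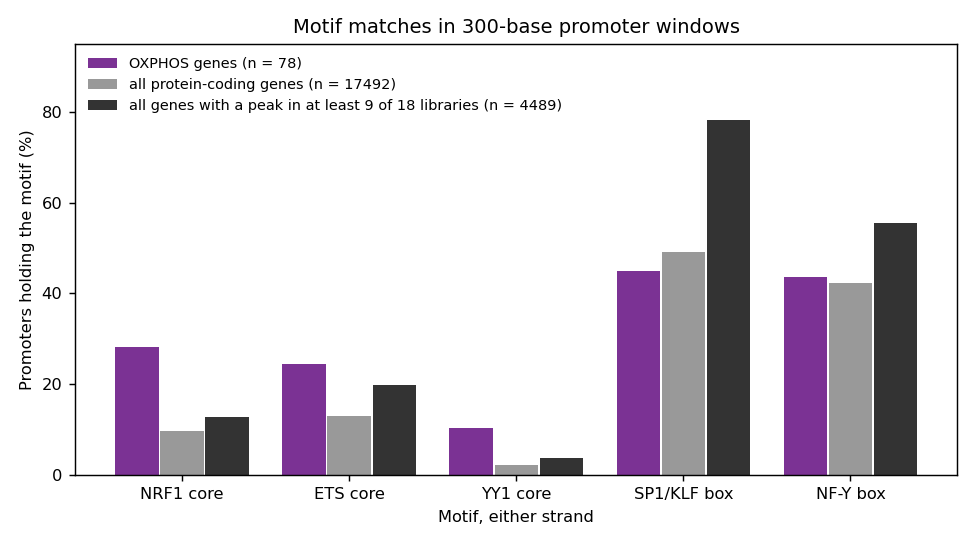
Share of 300-base promoter windows holding each motif on either strand (y axis, percent), for OXPHOS genes, all protein-coding genes and all genes with a peak in at least 9 of the 18 first-set lists at equal length. The NRF1 core stands at 28.2% for the OXPHOS genes and 9.63% for all genes, whereas the SP1/KLF box stands at 44.9% and 49.2%; NF-Y box is the CCAAT motif.

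The motif content was also set against the peaks. Of the 25 members with a promoter and a peak in 9 or more of the 18 lists, 20% held the NRF1 core, 32% the ETS core and 64% the GGGCGG box. Of the 42 members with a peak in 1 to 8 lists, 35.7% held the NRF1 core, 21.4% the ETS core and 31.0% the GGGCGG box. Of the 11 members with none, 18.2% held the NRF1 core, 18.2% the ETS core and 54.5% the GGGCGG box. These counts use peaks at the gene ends. Cox5a and Cox7a2, among the 11, had a peak within 1 kb of their RefSeq starts in 7 and 17 of the 18 lists. Both held the GGGCGG box and neither held the NRF1 core. The share with the NRF1 core thus did not climb with the number of lists. Over all genes, 12.7% of those with a peak in at least 9 lists and 4.57% of those with none held it.

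OXPHOS genes had a peak more often than protein-coding genes at large in each of the 26 lists. At equal length, 28.8% ± 3.35 of the members had a peak in ES (SD, n = 3), 34.4% ± 1.04 in FS1, 35.8% ± 3.18 in FS2, 31.2% ± 1.04 in EpiSC_AF, 37.2% ± 1.59 in EpiSC_AFX1 and 31.2% ± 1.80 in EpiSC_AFX2 (SD, n = 3 each). Over all genes the share was 21.1% in ES, 25.8% in FS1, 23.4% in FS2, 26.05% in EpiSC_AF, 25.8% in EpiSC_AFX1 and 25.6% in EpiSC_AFX2. The ratio of the 2 shares ran from 1.16 (EpiSC_AF replicate 2) to 1.60 (FS2 replicate 3). In shorter lists of 4022 peaks the mean share of EpiSC_AF was no longer above that of all genes, at 13.9% against 14.5%. With windows of 1 kb around the RefSeq starts in place of the gene ends, tried after the data were seen for the 78 members with a promoter, the members were above all genes in 18 of 18 lists at equal length and 26 of 26 as deposited. The 3 EpiSC_AFX1 lists (35.4% to 38.5%) lay above the 3 EpiSC_AFX2 lists (29.2% to 32.3%), although both were grown in AFX. Over all genes these lists overlapped (25.5% to 26.1% in EpiSC_AFX1 and 24.9% to 26.1% in EpiSC_AFX2). Many members had a peak in few lists: 28 members (29.2%) had a peak in only 1 to 3 of the 18 lists, against 14.6% of all genes, and 19 members (19.8%) had none, against 51.1%.

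As deposited, the share of members with a peak moved with the length of the list. It was 32.99% ± 5.74 in ES, 79.5% ± 5.24 in FS1, 49.7% ± 2.62 in FS2 and 67.7% ± 7.86 in EpiSC_AF (SD, n = 3 each), and 75.2% ± 5.49 in EpiSC_AFX (SD, n = 6). Over all genes it was 23.7%, 52.8%, 35.2%, 47.2% and 51.5% in the same order. In the Rd2 set it was 3.12% and 12.5% in the ES lists, 57.6% ± 18.1 in Rd2_EpiLC (SD, n = 4) and 55.2% and 51.0% in the Rd2_AFX lists. ES had the shortest lists of the first set, and its distance from the other cultures in the lists as deposited was far larger than at equal length.

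**Figure D2:**
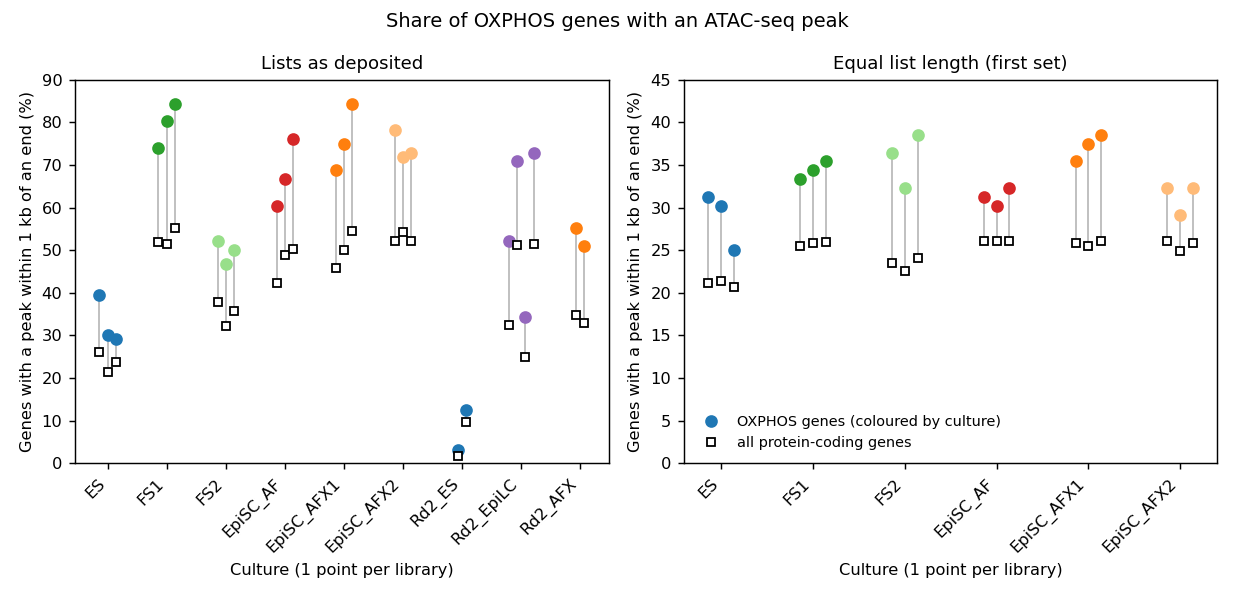
Share of genes with a peak within 1 kb of an end (y axis, percent), by culture, with 1 filled point for the 96 OXPHOS genes and 1 open square for all protein-coding genes in each library. On the left are the 26 lists as deposited and on the right the 18 first-set lists at equal length; every filled point lies above its square, by a ratio of at least 1.16 on the right.

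The peaks of the members were of middling strength and narrow. At equal length, the median rank of members with a peak was 49.7 in ES and 41.6 in FS1, against 55.8 and 55.0 for all genes with a peak. In EpiSC_AF it was 46.5 against 55.5 and in EpiSC_AFX 45.5 against 55.7, whereas in FS2 it was 51.9 against 51.4. The median width was 277 bp in ES against 312 bp for all genes, 349 against 414 bp in FS1, 270 against 294 bp in FS2, 331 against 385 bp in EpiSC_AF and 368 against 410 bp in EpiSC_AFX. Members of OXPHOS therefore had a peak more often, but one narrower in the median in each of these cultures. The rank and width of a peak are described here and were not tested between the members and other genes.

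The peaks lay at the starts of the genes. The strand was known for the 78 members with a promoter, and 73 of them had a peak in a first-set list as deposited. Of 934 pairs of such a member and a library, 84.9% had a best peak covering the start and 1.28% had it at the far end of the gene alone. The centre of the peak lay at a median of −53.5 bp from the start (negative is upstream), with quartiles at −123.5 and 10.75 bp. The share covering the start was 67.1% in ES, 88.2% in FS1 and 77.2% in FS2. Over all 26 lists, Ndufb6, an accessory subunit of complex I, had its best peak at its far end alone in 17 libraries. The widest peaks, by the median of the lists as deposited, were those of Cox6b2 (1030.5 bp), Uqcrh (899 bp), Ndufa4l2 (891 bp) and Atp5g2 (890 bp).

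Many members lie close to another gene, and a peak in a window of both cannot be given to either. The windows of 59 members (61.5%), at either end, overlapped a window of another protein-coding gene, against 32.2% of all genes. Of the 78 members with a promoter, 24 (30.8%) had the start of another gene within 1 kb of their own, against 9.99% of all genes with a promoter. At equal length, the 59 members with overlapped windows had a peak in 40.2% of cases on average, against 35.02% for all genes with overlapped windows. These members were above them in 18 of 18 libraries. The 37 members with windows of their own had a peak in 21.8% against 19.7% and were above in 11 of 18 libraries. In the lists as deposited, the latter shares were 50.2% and 35.9%, with the members above in 17 of 18 libraries. The higher share of OXPHOS genes at equal length was therefore small among genes that stood alone.

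At the top were 6 members with a peak in all 18 lists at equal length: Ndufaf8, Atp5e, Atp5b, Ndufaf2, Atp5g1 and Ndufa2. They were 6.25% of the members, a share near the 5.87% of all genes with a peak in every list. Ndufaf8, a partner of Ndufaf5 in the assembly of complex I, was the only member with a peak in each of the 26 lists as deposited, and its rank at equal length was 97.8 ± 1.47 (SD, n = 18). Atp5e and Atp5b, the epsilon subunit and the catalytic beta subunit of the ATP synthase head, ranked 91.8 ± 7.67 and 90.7 ± 5.28 (SD, n = 18 each). Ndufaf2, an assembly factor that binds late complex I intermediates, ranked 80.4 ± 10.2, and Atp5g1, 1 of 3 genes for the c subunit of the ATP synthase rotor, ranked 71.9 ± 11.6 (SD, n = 18 each). Ndufaf8 shares its windows with Tepsin, Atp5e with Prelid3b, Atp5b with Baz2a and Ndufaf2 with Ercc8, whereas Atp5g1 stands alone. The c subunit genes differed: Atp5g1 had a peak in 18 lists at equal length, Atp5g2 in 8 and Atp5g3 in 0, although Atp5g3 had one in 5 of the 26 lists as deposited, and in 10 within 1 kb of its RefSeq start.

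At the other end, 9 members had no peak within 1 kb of either end in any of the 26 lists, which is 9.38% of the members against 33.05% of all genes. They were Ndufb4b, Ndufb4c and the complex IV genes Cox5a, Cox6a2, Cox6c, Cox7a2, Cox7b2, Cox8b and Cox8c. Cox6a2 and Cox8b are isoforms of muscle, and Cox7b2 and Cox8c are isoforms of testis. The nearest peak in any list was 93.1 kb from an end of Cox6c, which encodes a subunit found in most tissues. Cox5a and Cox7a2, also subunits of most tissues, were missed by the windows: their RefSeq starts lie 3.90 and 4.61 kb from the nearest end of the gene record. Within 1 kb of its start, Cox5a had a peak in 17 of the 26 lists as deposited and in 7 of 18 at equal length, and Cox7a2 in 21 and 17. The starts of Atp5d and Atp5g3 also lay over 1 kb from both ends, and Atp5d had a peak at its start in 16 lists as deposited against 12 at its ends. Cox7b2, Cox8b and Ndufb4b had none at their starts either. For the restricted isoforms the nearest peak to an end was 2.87 kb away at Cox8b, 6.21 kb at Cox8c, 8.13 kb at Cox7b2 and 16.9 kb at Cox6a2.

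Other isoforms held as restricted did have peaks. Cox6b2, the testis isoform of subunit 6B, had a peak in 24 of the 26 lists as deposited and in 14 of 18 at equal length. Its rank at equal length ran from 0 to 74.4 in ES (median 24.0), from 0 to 51.1 in FS (22.6), from 0 to 16.2 in EpiSC_AF (4.97) and from 27.5 to 66.5 in EpiSC_AFX (32.0). Cox7a1, the heart and muscle isoform of subunit 7A, had a peak in 0 of 3 ES, 4 of 6 FS, 1 of 3 EpiSC_AF and 4 of 6 EpiSC_AFX lists. Ndufa4l2, a paralogue of Ndufa4 known for its induction by hypoxia, had one in 0 of 3, 2 of 6, 1 of 3 and 5 of 6. All 3 share windows with another gene (Cox6b2 with Fam71e2, Cox7a1 with Capns1, Ndufa4l2 with Stac3 and Shmt2). Cox4i2, the lung isoform of subunit 4, had no peak at equal length and had one in 7 of the 26 lists as deposited.

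**Figure D3:**
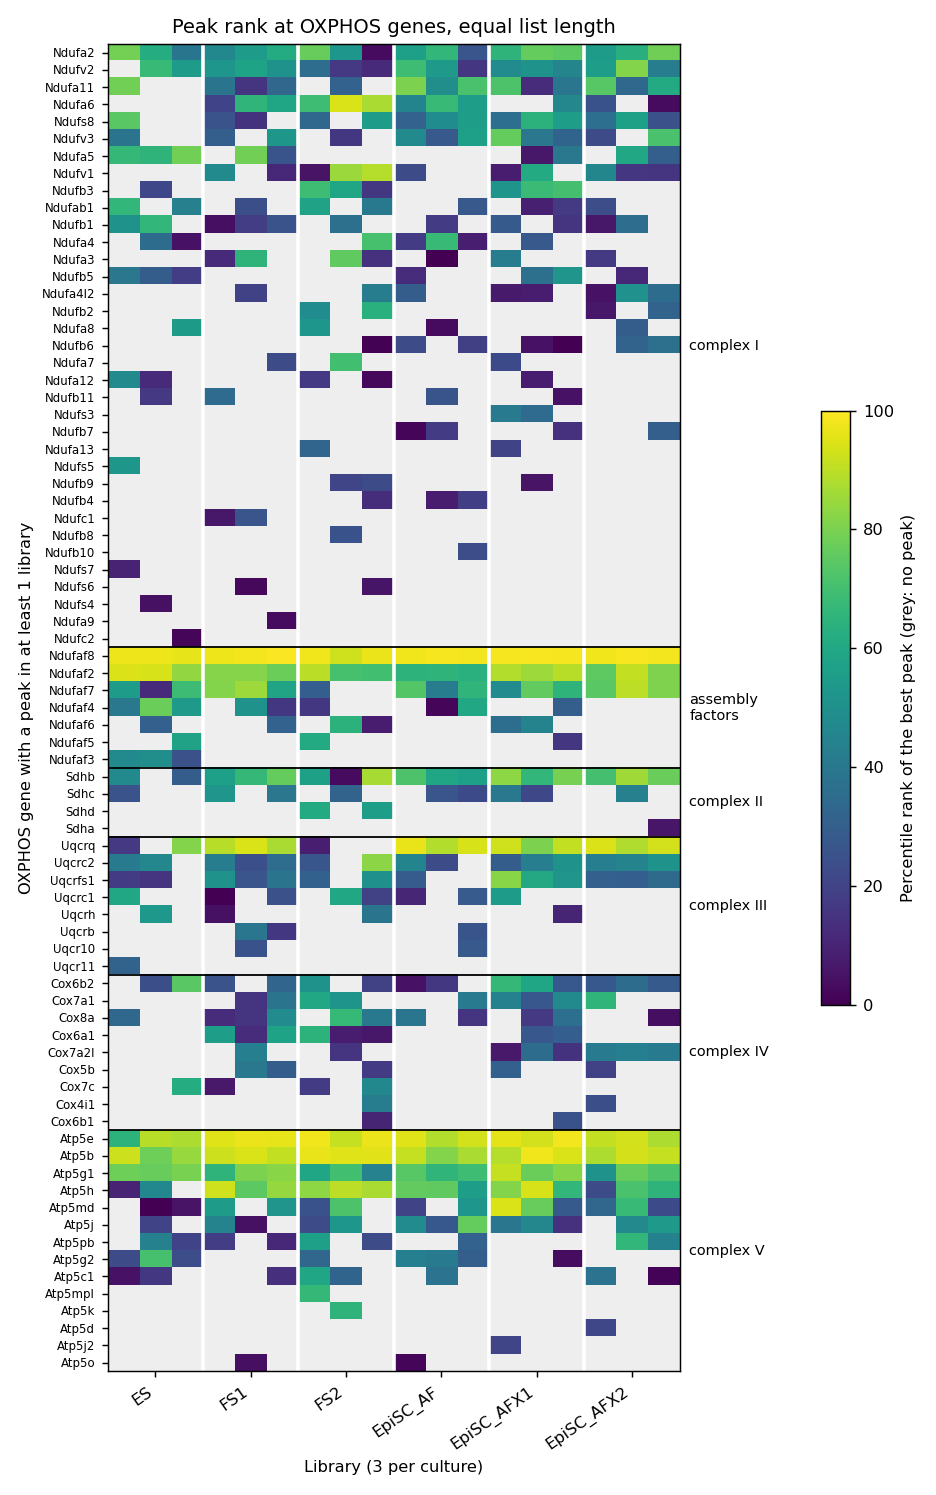
Percentile rank of the best peak within 1 kb of a gene end (colour, 0 to 100; grey for no peak) for the OXPHOS genes with a peak in at least 1 of the 18 first-set lists at equal length, by complex and in order of mean rank (rows), in 3 libraries of each culture (columns). Ndufaf8, Ndufaf2, Atp5e, Atp5b and Atp5g1 are coloured in every column, and most complex I rows hold few and scattered peaks.

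The complexes differed in how many of their genes had a peak. At equal length, the mean share over the 18 lists was 50.7% ± 13.2 for the assembly factors, 43.1% ± 15.6 for complex III, 42.2% ± 7.06 for complex V, 40.3% ± 15.2 for complex II, 29.3% ± 4.88 for complex I and 19.4% ± 10.1 for complex IV (SD, n = 18 each). Over all genes the mean share was 24.6% ± 1.91 (SD, n = 18). The shares of complexes II, III and V differed by less than their spread. These lists are small, and each gene of complex II counts for 25% of its share. The complex IV list counts Cox5a and Cox7a2 as without a peak, although at their RefSeq starts they had one in 7 and 17 lists. It also holds the restricted isoforms Cox4i2, Cox6a2, Cox7b2, Cox8b and Cox8c, which had none at equal length. How far these genes account for its low share was not tested. Members with overlapped windows had a peak in 40.2% of cases on average and those with windows of their own in 21.8%. The part of this in the order of the complexes was not tested either.

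Across cell types, the shares of the assembly factors and of complexes II and IV had the widest differences between means, and that of complex II, from 25% in ES to 45.8% in FS, lay within the 0% to 50% spanned by the ES lists. Of the 18 complex IV genes, 7.41% ± 3.21 had a peak in ES (SD, n = 3) and 9.26% ± 3.21 in EpiSC_AF (SD, n = 3), against 26.9% ± 6.49 in FS and 23.1% ± 8.18 in EpiSC_AFX (SD, n = 6 each). The FS lists, at 22.2% to 38.9%, lay above all ES and EpiSC_AF lists, which ended at 11.1%, while the lowest EpiSC_AFX list was also at 11.1%. Over all genes, the FS lists (22.6% to 25.9%) also lay above the ES lists (20.6% to 21.3%). They lay below the EpiSC_AF lists there (26.04% to 26.05%). Of the 8 assembly factors, 70.8% ± 7.22 had a peak in ES and 47.9% ± 12.3 in FS, 45.8% ± 7.22 in EpiSC_AF and 45.8% ± 10.2 in EpiSC_AFX, so that ES met FS and EpiSC_AFX at 62.5% and lay above EpiSC_AF, which ended at 50%. For complex I the share was 23.6% ± 3.73 in ES, 29.7% ± 5.21 in FS, 29.3% ± 2.44 in EpiSC_AF and 31.7% ± 4.36 in EpiSC_AFX. For complex V it was 41.2% ± 10.2, 42.2% ± 10.1, 45.1% ± 3.40 and 41.2% ± 3.72. Cox5a and Cox7a2, whose starts the windows missed, count as without a peak in these shares. As deposited, complex IV was at 7.41% in ES, 46.3% in FS, 46.3% in EpiSC_AF and 51.9% in EpiSC_AFX.

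**Figure D4:**
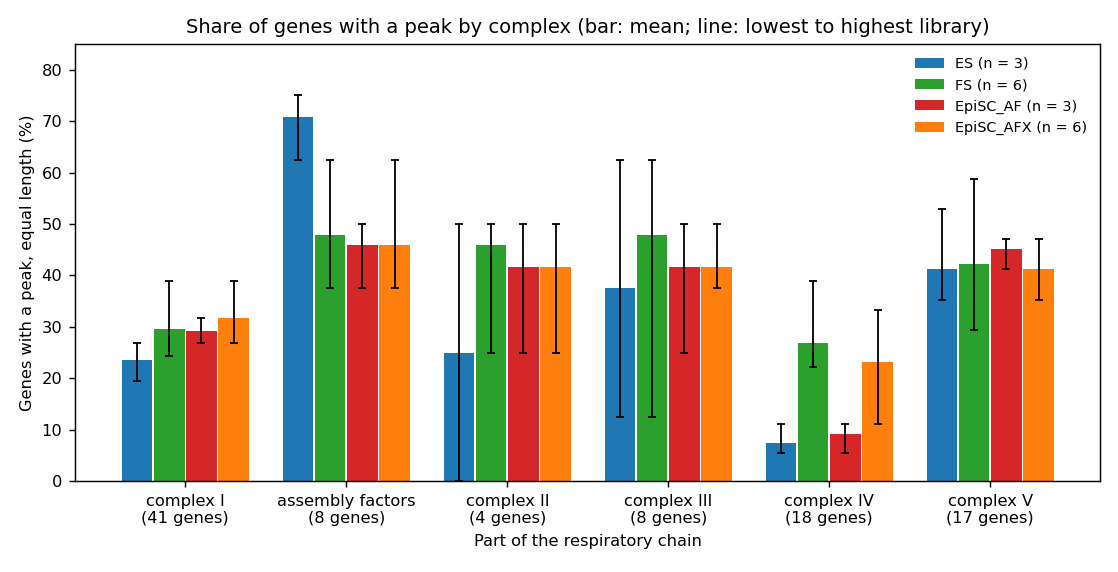
Share of genes with a peak at equal list length (y axis, percent), by complex and cell type; bars are means over libraries and lines run from the lowest to the highest library. Complex IV stands at 7.41% in ES and 26.9% in FS, and the assembly factors at 70.8% and 47.9%.

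Complex II, or succinate dehydrogenase, is the smallest complex and all of its genes are in the nucleus. Sdhb, its iron-sulfur subunit, had a peak in 17 of 18 lists at equal length with a rank of 59.6 ± 25.6 (SD, n = 18). Sdhc, a membrane anchor, had a peak in 9 lists, Sdhd, the other anchor, in 2, both of FS2, and Sdha, the flavoprotein that oxidises succinate, in 1. As deposited, Sdhb had a peak in 23 of 26 lists, Sdhc in 18, Sdhd in 17 and Sdha in 14. Of the 4 genes, Sdhb is the only one whose windows overlap no other gene.

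For the tests, the ranks at equal length were fitted with limma over all 18 libraries with 4 cell types, for the 8248 genes with a peak in at least 3 libraries. Of the 96 members, 55 passed this filter, and p-values were adjusted over all genes tested. ES was compared with FS and with EpiSC_AFX, and both comparisons used the same 3 ES libraries. Against FS, 2 members ranked higher in ES (limma, adjusted p under 0.05), against 2.57% of all genes tested, and 2 ranked lower, against 4.04%. Against EpiSC_AFX, 3 members ranked higher in ES, against 2.49% of all genes, and 2 ranked lower, against 5.58%. These are 3.64% to 5.45% of the members tested in each direction, so the members as a list were called about as often as other genes. Ndufaf3 is among the members higher in ES in both comparisons. It met the filter through its 3 ES lists alone, so a difference was built into its being tested. The median difference over the members was −2.20 for ES against FS (−3.68 over all genes) and −7.22 for ES against EpiSC_AFX (−6.08 over all genes).

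These calls hold for limma alone. An exact permutation test of each gene and Fisher's exact test of presence, both two-sided with Benjamini-Hochberg adjustment over the 8248 genes, called 0 genes. With 3 against 6 libraries the exact permutation test cannot go below p = 0.0119, and the lowest adjusted p of any gene was 0.219 for ES against FS and 0.122 for ES against EpiSC_AFX. At an unadjusted p under 0.05, limma had 11 members (20% of those tested) for ES against FS, against 19.5% of all genes. For ES against EpiSC_AFX it had 11 (20%), against 21.7% of all genes. The exact permutation test had 10 and 12 of the 55 members in these comparisons, against 10.8% and 18.1% of all genes. Limma on 1 mean for each culture called 0 genes, with 7 members at an unadjusted p under 0.05 in either comparison. This last count was not set beside the share of all genes. Ranking by fold enrichment ended the call of Ndufa6 against FS and those of Ndufaf4, Atp5h and Sdhb against EpiSC_AFX. In lists of 4022 peaks only the calls of Atp5h against FS and of Sdhb against EpiSC_AFX remained, as Ndufaf3 and Atp5g2 no longer had enough peaks to be tested. Under fold enrichment Ndufaf3 was not tested either. The lists as deposited ended the calls of Ndufaf3, Ndufaf4 and Atp5g2.

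Higher in ES were the assembly factors Ndufaf3 and Ndufaf4, which act together at an early step of complex I assembly. Ndufaf3 (chr9:108565587-108567436, minus strand) ranked 47.7, 49.3 and 24.7 in the 3 ES lists and was at 0 in the 15 others at equal length. The difference was 40.6 ± 6.09 (SE) against FS (limma, adjusted p = 0.000326) and 40.6 ± 6.09 (SE) against EpiSC_AFX (limma, adjusted p = 0.000334), and the exact permutation p was 0.0119 in both. Ndufaf3 met the filter of 3 libraries through ES alone, so a difference was built into its being tested, and these p-values support nothing beyond the ranks themselves. As deposited, Ndufaf3 had a peak in 3 ES, 3 FS1, 1 FS2, 3 EpiSC_AF, 2 EpiSC_AFX1 and 3 EpiSC_AFX2 lists, so its absence at equal length is one of rank. Its windows overlap those of Impdh2 and Dalrd3.

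Ndufaf4 (chr4:24898083-24905001, plus strand) ranked 40.2, 77.7 and 53.6 in ES. It ran from 0 to 51.2 in FS (median 8.22) and from 0 to 30.2 in EpiSC_AFX (median 0), and EpiSC_AF stood at 0, 1.7 and 60. ES thus lay above EpiSC_AFX, met the highest FS list and overlapped EpiSC_AF, where 1 list was above 2 of the 3 ES lists. The difference from EpiSC_AFX was 52.1 ± 13.9 (SE; limma, adjusted p = 0.0265; exact permutation p = 0.0119), and it lost the call without ES replicate 2 or ES replicate 3, with an adjusted p of up to 0.150. The difference from FS was 43.2 ± 13.9 (SE; limma, adjusted p = 0.076), which did not pass. Ndufaf4 shares its windows with no other gene.

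Atp5g2 (chr15:102662868-102671047, minus strand), for the c subunit of the ATP synthase rotor, ranked 22.9, 71.0 and 23.8 in ES. In FS it had a peak in 1 of 6 lists, at 32.96, and in EpiSC_AFX in 1 of 6, at 3.39, whereas EpiSC_AF was at 43.0, 41.6 and 30.3. ES and EpiSC_AF thus had a peak in all their lists, and FS and EpiSC_AFX in few. The difference of ES from EpiSC_AFX was 38.7 ± 9.88 (SE; limma, adjusted p = 0.0213; exact permutation p = 0.0119) and that from FS was 33.7 ± 9.88 (SE; limma, adjusted p = 0.0493; exact permutation p = 0.0357). Without ES replicate 2 both calls were lost (adjusted p = 0.163 for EpiSC_AFX and 0.337 for FS), and the call against FS was also lost without FS1 replicate 1, 2 or 3 or FS2 replicate 2 or 3, with windows of 500 bp, or with only ES and FS in the fit. As deposited, Atp5g2 had a peak in all 18 lists, and its difference from EpiSC_AFX turned to −4.16.

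Lower in ES was Atp5h (chr11:115415691-115419919, minus strand), the d subunit of the peripheral stalk of the ATP synthase. It ranked 9.4, 46.7 and 0 in ES, against 74.9 to 92.8 in FS (median 85.8), 55.6 to 75.8 in EpiSC_AF (75.5) and 23.1 to 93.9 in EpiSC_AFX (68.6). ES lay below all FS and EpiSC_AF lists and met the lowest EpiSC_AFX list. The difference from FS was −66.7 ± 12.5 (SE; limma, adjusted p = 0.00269; exact permutation p = 0.0119) and stayed called when any 1 of the 9 ES and FS libraries was left out. The difference from EpiSC_AFX was −48.1 ± 12.5 (SE; limma, adjusted p = 0.0235; exact permutation p = 0.0238), and was lost without ES replicate 1 or ES replicate 3 (adjusted p of up to 0.130) or with only ES and EpiSC_AFX in the fit. The windows of Atp5h overlap those of Kctd2.

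Ndufa6 (chr15:82350139-82354291, minus strand), an accessory subunit of complex I, had no peak in any ES list, at equal length or as deposited. It ranked 20.1 to 94.2 in FS (median 67.2), 45.2 to 67.4 in EpiSC_AF (55.9) and 0 to 46.4 in EpiSC_AFX (1.46), with a peak in 3 of the 6 EpiSC_AFX lists. The difference of ES from FS was −65.8 ± 13.6 (SE; limma, adjusted p = 0.00587; exact permutation p = 0.0119) and stayed called when any 1 of the 9 ES and FS libraries was left out. FS and EpiSC_AFX differed by 53.4 ± 11.1 (SE; limma, adjusted p = 0.0768; exact permutation p = 0.00649), which did not pass over all libraries. Without FS1 replicate 1 or EpiSC_AFX1 replicate 3 it did, with an adjusted p as low as 0.00645. Ndufa6 shares its windows with Smdt1.

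Sdhb (chr4:140961271-140979198, plus strand) ranked 47.7, 0 and 29.5 in ES, 3.07 to 86.8 in FS (median 61.7), 56.5 to 71.9 in EpiSC_AF (58.7) and 66.1 to 85.7 in EpiSC_AFX (78.3). All EpiSC_AF and EpiSC_AFX lists lay above the ES lists, whereas FS overlapped ES in 1 FS2 list. The difference of ES from EpiSC_AFX was −51.3 ± 13.9 (SE; limma, adjusted p = 0.0294; exact permutation p = 0.0119), and was lost without ES replicate 2, ES replicate 3 or EpiSC_AFX2 replicate 2 (adjusted p of up to 0.178). The difference from FS was −32.0 ± 13.9 (SE; limma, adjusted p = 0.207).

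Ndufa5, an accessory subunit of the matrix arm of complex I, came close without passing. It ranked 66.7, 64.9 and 78.7 in ES, 0 to 78.9 in FS (median 0), 0 in all EpiSC_AF lists and 0 to 59.9 in EpiSC_AFX (18.4). The ES lists lay above all EpiSC lists, and 1 FS1 list was as high. Its difference was 52.6 ± 16.2 (SE) from FS (limma, adjusted p = 0.0624) and 47.3 ± 16.2 (SE) from EpiSC_AFX (limma, adjusted p = 0.0839).

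**Figure D5:**
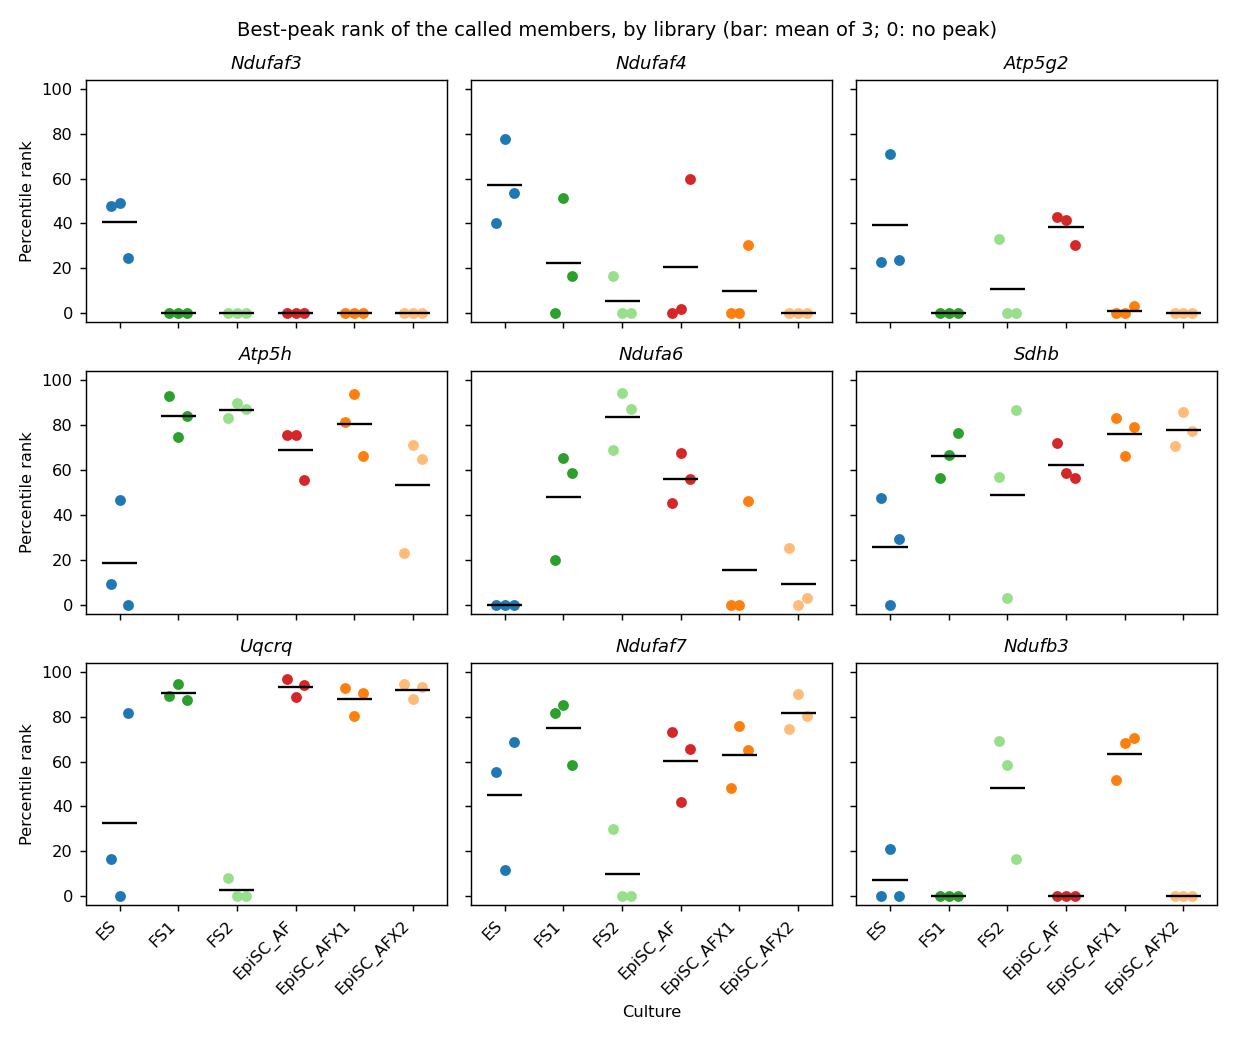
Percentile rank of the best peak (y axis, 0 where there was no peak) in each library of the 6 first-set cultures (x axis, 3 points each; the bar is their mean) for the 9 OXPHOS genes called in a comparison of cell types or lines. Ndufaf3 is above 0 in the 3 ES lists alone, Ndufa6 is at 0 in ES, and Uqcrq and Ndufaf7 are low in FS2 but not in FS1.

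FS and the primed cells were not told apart at any member. Of the 55 members tested, 0 were called for FS against EpiSC_AFX (0.0242% of all genes higher in FS and 0.109% lower), 0 for FS against EpiSC_AF (0.109% higher and 0.327% lower) and 0 for EpiSC_AF against EpiSC_AFX (0.0485% higher and 0% lower). At an unadjusted p under 0.05, limma had 4, 5 and 6 members in these 3 comparisons (7.27%, 9.09% and 10.9% of those tested). Over all genes it had 12.0%, 12.7% and 4.73%. The exact permutation test had 3, 6 and 6 members, against 7.81%, 8.14% and 4.47% of all genes. Fisher's exact test had 0, 2 and 3 members, against 0.424%, 2.50% and 1.25% of all genes. Both exact tests called 0 genes after adjustment. The comparisons share libraries, and so few genes were called overall that they say little of the members. The median difference over the members was 1.91 for FS against EpiSC_AFX (−1.96 over all genes), 7.14 for FS against EpiSC_AF (−1.64 over all) and −2.64 for EpiSC_AF against EpiSC_AFX (0 over all).

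The members with the largest differences were given although they did not pass. Cox6a1, the subunit 6A isoform of most tissues, ranked 6.63 to 64.7 in FS and 0 in all 3 EpiSC_AF lists, a difference of 34.34 ± 12.999 (SE; limma, adjusted p = 0.276). Cox6a1 had no peak in the 3 ES lists as deposited either, while all 9 EpiSC lists as deposited held one. Ndufa11, an accessory subunit of the complex I membrane arm, ranked 0 to 38.6 in FS and 80.1, 49.4 and 71.1 in EpiSC_AF, a difference of −47.1 ± 16.9 (SE; limma, adjusted p = 0.258) that turned to 12.0 with windows of 500 bp. Uqcrfs1, the Rieske iron-sulfur protein of complex III, ranked 29.04, 0 and 0 in EpiSC_AF and 29.9 to 82.2 in EpiSC_AFX, a difference of −38.6 ± 12.6 (SE; limma, adjusted p = 0.628). At these genes, picked for the largest differences, the groups named did not overlap, narrowly so at Uqcrfs1 (29.04 against 29.9). How many of all genes did the same was not counted. Uqcrq had the largest lower value in FS against EpiSC_AFX, by −43.4 ± 17.75 (SE; limma, adjusted p = 0.357), with FS1 and FS2 far apart. Ndufa6 was higher in value in EpiSC_AF than in EpiSC_AFX by 43.8 ± 13.6 (SE; limma, adjusted p = 0.585).

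The 2 FS lines differed from each other at some members. A limma fit with the 6 cultures, added after the data were seen, called 2 members higher in FS1 (6.39% of all genes) and 1 lower (1.58% of all genes). Uqcrq (chr11:53427922-53430831), a small subunit of complex III, ranked 89.3, 94.5 and 87.3 in FS1 and 8.3, 0 and 0 in FS2, a difference of 87.6 ± 14.2 (SE; limma, adjusted p = 0.00115). FS2 was the exception among the FS and EpiSC cultures, as the EpiSC lists ran from 80.1 to 96.6. Ndufaf7 (chr17:78937106-78948052, plus strand), a complex I assembly factor, ranked 81.6, 85.2 and 58.3 in FS1 and 30, 0 and 0 in FS2, a difference of 65.1 ± 14.1 (SE; limma, adjusted p = 0.00875). Both calls held without any single FS library, but lists of 4022 peaks ended that of Ndufaf7 (limma, adjusted p = 0.0621). Uqcrq shares its windows with Gdf9, and Ndufaf7 with Cebpz and Prkd3.

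Ndufb3 (chr1:58586397-58595964, plus strand), an accessory subunit of the complex I membrane arm, was 0 in all FS1 lists and 69.0, 58.6 and 16.4 in FS2, a difference of −48.0 ± 11.0 (SE; limma, adjusted p = 0.0122). It was also the 1 member called between the lines grown in AFX, of 0.449% of all genes higher in EpiSC_AFX1 and 0.788% lower. It ranked 51.7, 68.2 and 70.5 in EpiSC_AFX1 and 0 in all EpiSC_AFX2 lists, a difference of 63.5 ± 11.0 (SE; limma, adjusted p = 0.00923). FS2 and EpiSC_AFX1 thus had a ranked peak at Ndufb3, and FS1, EpiSC_AF and EpiSC_AFX2 had none at equal length, although all 15 FS and EpiSC lists held one as deposited. The calls between lines have 3 against 3 libraries, where an exact permutation test cannot go below p = 0.1, and it gave p = 0.1 for all 4. In lists of 4022 peaks neither call of Ndufb3 passed (limma, adjusted p = 0.325 and 0.197). The windows of Ndufb3 overlap those of Fam126b.

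In the Rd2 set, Rd2_EpiLC and Rd2_AFX were compared at an equal length of 7469 peaks. Of 51 members tested, 0 were called by limma, as were 0% of the 6959 genes. At an unadjusted p under 0.05, limma had 3 members (5.88%), against 10.8% of all genes. The median difference over the members was −8.85 (−0.41 over all genes), and 31.4% of the members ranked higher in Rd2_EpiLC against 49.3% of all genes. Atp5md, a small subunit linked to ATP synthase dimers, ranked 49.9, 57.8, 0 and 54.6 in Rd2_EpiLC and 96.8 and 87.0 in Rd2_AFX, a difference of −51.3 ± 18.7 (SE; limma, adjusted p = 0.391). Atp5pb, the b subunit of the peripheral stalk, ranked 72.9, 50.8, 66.6 and 0 in Rd2_EpiLC and 0 in both Rd2_AFX lists, a difference of 47.6 ± 21.7 (SE; limma, adjusted p = 0.544). In the first set, Atp5md ranked 0 to 5.2 in ES, 0 to 72.1 in FS and 22.3 to 94.2 in EpiSC_AFX, with no call in any comparison. In Rd2, the groups did not overlap at Atp5md and met at 0 at Atp5pb, and both genes were picked for the largest differences. Ndufa6 had a peak in the lists as deposited in 4 of 4 Rd2_EpiLC and 0 of 2 Rd2_ES, and Ndufaf8 in all 8, but the 471 and 2576 peaks of Rd2_ES allow no comparison.

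Other genes of energy metabolism and of mitochondrial transcription were described in the same way, from lists chosen to go with OXPHOS. At equal length, the 17 glycolysis genes had a peak in 43.1% ± 8.99 of cases in ES, 54.9% ± 10.3 in FS, 54.9% ± 8.99 in EpiSC_AF and 53.9% ± 4.43 in EpiSC_AFX, and 0 of 12 tested were called in either ES comparison. The 13 genes of the tricarboxylic acid cycle were at 41.0% ± 4.44, 41.0% ± 12.6, 48.7% ± 4.44 and 48.7% ± 3.97. Of 9 tested, Ogdh, a subunit of the oxoglutarate dehydrogenase complex, ranked higher in ES than in FS by 37.6 ± 10.9 (SE; limma, adjusted p = 0.0471). Of 20 tested among 35 other assembly factors and cytochrome c genes, Sdhaf1, an assembly factor that serves Sdhb, ranked lower in ES, by a difference of −65.0 ± 9.94 (SE) from FS (limma, adjusted p = 0.000403) and −63.0 ± 9.94 (SE) from EpiSC_AFX (limma, adjusted p = 0.000533). Of 10 tested among 13 genes of mitochondrial transcription and its regulators, Tfb2m, a transcription factor of mitochondrial DNA, ranked higher in ES by 48.9 ± 12.7 (SE) than in FS (limma, adjusted p = 0.0263) and by 70.6 ± 12.7 (SE) than in EpiSC_AFX (limma, adjusted p = 0.00186). In the fit of the 6 cultures, Yy1 ranked higher in FS1 than in FS2 by 42.6 ± 11.8 (SE; limma, adjusted p = 0.0359), as did Esrra by 53.3 ± 12.4 (SE; limma, adjusted p = 0.0132) and Suclg2 of the tricarboxylic acid cycle by 50.9 ± 12.4 (SE; limma, adjusted p = 0.0186). The exact permutation test called none of these genes in the comparisons of cell types. Between lines, with 3 against 3 libraries, the exact permutation test cannot go below p = 0.1. Over all genes tested, limma called 2.57% higher in ES than in FS and 4.04% lower. Against EpiSC_AFX it called 2.49% higher in ES and 5.58% lower. Between the FS lines it called 6.39% higher in FS1 and 1.58% lower.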

How the data were processed

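ATAC-seq was measured in 26 libraries, and the authors deposited 1 list of broad peaks for each, so peaks were called per sample. Per the submitters' processing notes, Trim Galore, Bowtie, Picard, MACS2 and the mouse build mm10 (GRCm38) were used, and their settings are not given in the sources used here. Each deposited peak has a score that equals 10 times its −log10 q, a fold enrichment (a ratio over a background that is not described) and a −log10 p. These are the authors' values. The narrowest peak was 150 bp in every list of the first set and 110 bp in every list of the Rd2 set. The sets may thus have been processed differently, and they were tested apart. Read depth is unknown.

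Genes, symbols and promoters came from RefSeq tables of GRCm38.p6. The best peak by −log10 p within 1 kb of either end of a gene was taken, in the whole list and in the strongest 8044 peaks (7469 for Rd2), and its percentile rank in that list was used, with 0 for no peak. Limma 3.58.1 (R 4.3.3, robust empirical Bayes) was fitted to genes with a peak in at least 3 libraries (2 for Rd2), with Benjamini-Hochberg adjustment over all genes tested and a threshold of 0.05. On simulated data for ES against FS it called unchanged genes at more than the nominal rate, so its adjusted p-values are likely too small. Exact permutation and Fisher's exact tests were the alternatives, with other rankings, lengths, windows and filters and with each library left out. The fit of 6 cultures and the windows at RefSeq starts were added after the data were seen. Tables were made with Python 3.11.15, numpy 2.4.6, pandas 2.3.3, scipy 1.17.1 and matplotlib 3.10.9.

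Members named were, in each comparison, up to 4 called with the largest difference in each direction or, with none called, the 1 with the largest difference. Also named were the 5 with the highest mean rank among those with a peak in every list, those with no peak, the 4 widest, complex II, the restricted isoforms and the 2 most variable of each complex. The genes follow from their symbols, but this family and the other lists were chosen with earlier results of these data known. The Rd2_ES lists were left out of tests because they hold 471 and 2576 peaks.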

Additional observations from a re-analysis of the deposited data

Results flagged for a closer look

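Among 14 named members, 31 groups of 4 to 6 libraries were checked for 1 library far from the rest by Dixon's criterion, and 5 groups met it. Chance gives about 1 in 20 groups of normally distributed values, a rate that does not hold for ranks with many zeros: where all other libraries are at 0, as in 3 of the 5 groups, any single peak meets the criterion. All values are ranks at equal length. Atp5g2 stood at 32.96 in 1 FS library (FS2 replicate 1) and at 3.39 in 1 EpiSC_AFX library (EpiSC_AFX1 replicate 3), with the other 5 libraries of each group at 0. Ndufaf4 stood at 51.2 in FS1 replicate 2 and at 30.2 in EpiSC_AFX1 replicate 3, with the other 5 EpiSC_AFX libraries at 0. Sdhb stood at 3.07 in FS2 replicate 2, below the 5 other FS libraries.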

How the results depend on the processing

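Of the values for single members under another setting, 305 kept their side of the threshold, 50 lost their call, 3 gained one and 1 called value turned sign (Atp5g2 in ES against EpiSC_AFX, −4.16 with lists as deposited). Ndufa11 in FS against EpiSC_AF, not called, also turned, to 12.0 with windows of 500 bp. For the number of members called in ES against FS (4) and ES against EpiSC_AFX (5), ranking by fold enrichment gave 2 and 1, lists of 4022 peaks 1 and 1, and genes with a peak in at least 9 libraries 2 and 3. Without genes that share a window the counts were 1 and 3, and both exact tests and 1 mean for each culture gave 0 and 0. Lists as deposited gave 17 and 32, all lower in ES, beside 2339 and 5049 of all genes. Leaving out 1 library gave 2 to 5 and 1 to 6, the lowest without ES replicate 2 in both. For FS against EpiSC_AFX it gave 0 to 1, for FS1 against FS2 3 to 5 and for EpiSC_AFX1 against EpiSC_AFX2 1 to 2, the last 2 highest without FS2 replicate 1 and EpiSC_AFX1 replicate 1. Fitting only the types compared gave 1 member for EpiSC_AF against EpiSC_AFX. Lists of 4022 peaks gave 0 for EpiSC_AFX1 against EpiSC_AFX2, and lists of 3734 peaks gave 1 for Rd2 (Atp5md, −77.6, limma, adjusted p = 0.0472). The cause of these changes was not tested. The share of members with a peak in ES, FS, EpiSC_AF and EpiSC_AFX was 32.99%, 64.6%, 67.7% and 75.2% in lists as deposited and 13.9%, 16.7%, 13.9% and 15.6% in lists of 4022 peaks. Keeping only peaks whose −log10 q reached 5 gave 2.43% in ES, 21.2% in FS and 26.04% in EpiSC_AF, and windows of 500 bp gave 29.2% in EpiSC_AF. Windows at RefSeq starts (78 members, added after seeing the data) gave 32.9% in ES, 39.3% in FS and 35.5% in EpiSC_AF. Leaving out 1 library gave 27.6% to 30.7%, 34.4% to 35.6%, 30.7% to 31.8% and 33.33% to 35.2%. Libraries of the same replicate number had a mean r of 0.0025 (range −0.042 to 0.033, n = 45 pairs of libraries). Those of different numbers had −0.0013 (range −0.027 to 0.030, n = 90 pairs). No pairing by number was seen, which does not show that the numbers pair no samples. The replicate block gave 3 and 5 members in the ES comparisons.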

Other observations

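The OXPHOS subunits encoded by mitochondrial DNA lie outside the gene list, but the peak lists also cover that genome. Each of the 26 lists held 2 peaks on it. The stronger of them ranked 81.4 to 97.1 in the lists of the first set as deposited and 94.1 to 99.7 in the Rd2 set. Together they covered 6465 to 7243 bp in the first set and 11508 to 11570 bp in the Rd2 set.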
